A study of Mus musculus with 40 samples.

Results

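Myosin heavy chain is the motor protein of the thick filament, and the gene that a muscle fiber uses sets how fast the fiber contracts and is the usual basis of its type. The genes described here are the 9 sarcomeric genes Myh1, Myh2, Myh3, Myh4, Myh6, Myh7, Myh7b, Myh8 and Myh13, chosen by symbol. Of these, 8 had a row among the 22844 genes of the count and TPM tables, and all 8 passed the filter of 1 CPM (a count scaled to library size) in at least 5 libraries that left 13543 genes for testing. Myh3, the embryonic heavy chain, was not analysed here.

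Adult limb muscle of the mouse contains slow type I fibers with Myh7 and fast type IIA, IIX and IIB fibers with Myh2, Myh1 and Myh4, in rising order of speed. Myh3 and Myh8 serve developing and regenerating fibers, Myh6 is the fast chain of the heart, Myh13 belongs to extraocular muscle, and Myh7b is an ancient slow-type chain. The fast and developmental genes lie side by side on chromosome 11, and Myh6 and Myh7 form a pair on chromosome 14. Fibers change their heavy chain with nerve activity, load, thyroid hormone and age, and mixed fibers carry neighbouring types.

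Poly(A) RNA was sequenced from the extensor digitorum longus (EDL), a fast toe extensor, in 40 libraries that formed 8 groups of 5. The groups crossed age (3 or 9 months), genotype and treatment. Control mice (CON) carried floxed Tsc1 alleles (Tsc1fl/fl, strain Tsc1tm1Djk/J) without Cre, and TSCmKO mice carried the same alleles with Cre in muscle fibers, which removes Tsc1 and leaves the growth kinase complex mTORC1 active. The promoter that drove Cre is not given in the sources used here. Mice received intraperitoneal vehicle or, in the groups marked +RM, the mTORC1 inhibitor rapamycin for 3 days, at 4 mg per kg by the sample labels, although another statement of the dose differs. The groups are therefore 3mCON, 3mCON+RM, 3mTSCmKO, 3mTSCmKO+RM and the same set at 9 months. The inserts of the 3-month libraries measured 175 to 239 nt and those of the 9-month libraries 223 to 308 nt, so that age and library preparation cannot be told apart.

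Each library held 8883870 to 35224669 estimated counts. Tsc1 itself lay at 4.99 to 13.2 TPM in the 20 TSCmKO libraries and at 14.1 to 43.8 TPM in the 20 control libraries, with no overlap. Its log2 change in TSCmKO against controls was -1.99 at 3 months, -1.55 at 9 months and, under rapamycin, -1.90 and -1.97 (edgeR). The 6 skeletal fiber markers were detected in every group and summed to 57992 to 117766 CPM. In these bulk samples, fewer fibers of a type and less RNA per fiber cannot be told apart.

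The nucleotide sequences of the heavy chains are shown first, because they decide which gene a read of 50 nt could be credited to. Within the coding sequence, 20.1% of the 31-base words of Myh4 also occur in Myh1, 17.7% in Myh2, 16.2% in Myh8 and 0.725% in Myh7, while 34.0% of those of Myh7 occur in Myh6. The stretches of 149 bases below surround the longest run, of 109 bases, that the 4 genes have in common (GENCODE M21, GRCm38, plus strand). They lie in exon 23 of Myh4 (chr11:67252204-67252352), exon 24 of Myh1 (chr11:67213585-67213733), exon 24 of Myh8 (chr11:67297468-67297616) and exon 23 of Myh2 (chr11:67188684-67188832), and capitals mark bases that differ from Myh4.
Myh4: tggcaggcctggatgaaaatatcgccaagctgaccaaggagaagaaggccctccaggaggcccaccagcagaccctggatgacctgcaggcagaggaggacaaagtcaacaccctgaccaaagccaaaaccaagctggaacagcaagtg
Myh1: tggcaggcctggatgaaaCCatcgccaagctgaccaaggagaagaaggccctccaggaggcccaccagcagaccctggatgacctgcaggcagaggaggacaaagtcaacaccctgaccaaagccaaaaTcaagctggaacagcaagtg
Myh8: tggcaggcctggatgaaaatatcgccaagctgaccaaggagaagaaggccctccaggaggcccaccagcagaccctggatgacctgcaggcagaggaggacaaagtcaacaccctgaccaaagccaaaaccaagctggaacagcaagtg
Myh2: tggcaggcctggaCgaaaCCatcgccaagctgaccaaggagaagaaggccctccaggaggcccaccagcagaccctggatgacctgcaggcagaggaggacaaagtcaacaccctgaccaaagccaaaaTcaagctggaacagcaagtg
Myh8 had 0 differing bases from Myh4 over the whole stretch, Myh1 had 3 and Myh2 had 4, so that a read of Myh4 from this stretch fits the perinatal gene equally well, and one of Myh1 or Myh2 does so within the shared run.

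The slow and cardiac pair shared a longer run of 245 bases. The 285 bases around it lie on the minus strand, in exons 32 to 33 of Myh7 (chr14:54974927-54975367) and exons 30 to 31 of Myh6 (chr14:54948307-54948745), with the intron left out. Capitals mark the 3 bases in which Myh6 differs from Myh7.
Myh7: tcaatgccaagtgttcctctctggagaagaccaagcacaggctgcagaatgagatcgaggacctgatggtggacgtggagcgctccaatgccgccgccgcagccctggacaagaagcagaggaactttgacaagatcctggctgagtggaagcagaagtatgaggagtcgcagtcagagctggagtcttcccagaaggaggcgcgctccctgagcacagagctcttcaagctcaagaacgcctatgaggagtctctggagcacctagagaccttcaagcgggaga
Myh6: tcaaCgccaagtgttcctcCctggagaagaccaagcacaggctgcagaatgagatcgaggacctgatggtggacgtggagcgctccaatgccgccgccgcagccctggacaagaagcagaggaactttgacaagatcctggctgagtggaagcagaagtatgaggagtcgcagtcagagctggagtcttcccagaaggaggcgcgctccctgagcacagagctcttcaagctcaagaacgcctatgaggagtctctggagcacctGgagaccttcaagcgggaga
These exons encode part of the rod, the tail by which myosin packs into the thick filament.

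The authors credited a read that fitted several transcripts in equal parts to each, and kept only well supported transcripts. The length implied by counts and TPM shows which transcripts stood behind each row. Myh4 (5912 nt), Myh8 (6149 nt), Myh1 (median 5898 nt), Myh7 (median 5946 nt) and Myh6 (median 5589 nt) rested on full-length messages. The Myh2 row rested on a transcript of 1488 nt with a retained intron (chr11:67171066-67174622), not on the full message of 6083 nt. The Myh13 row rested on 668 nt (chr11:67364785-67369204) of a full message of 6062 nt, and the Myh7b row on short non-coding transcripts of 667 and 674 nt.

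To see how reads would be divided, every 50-base window of each full message was matched to the transcripts behind the rows. Of the windows of Myh4, 88.0% went to the Myh4 row, 6.56% to Myh1 and 3.96% to Myh8. Of the windows of Myh2, 6.26% went to its own row, 25.1% to Myh1, 13.1% to Myh8, 8.16% to Myh4, and 46.1% to none of the rows. Myh1 kept 93.3% of its windows, Myh7 92.7%, Myh8 90.2% and Myh6 84.7%.

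Solving these divisions for each library, under the assumption of even coverage along each message, gave the part of each row that its own message supplied. Myh4 supplied a median of 99.4% of its own row, Myh1 64.3% (49.1 to 87.1% over the 40 libraries), Myh7 53.3% and Myh6 40.3%. Myh8 supplied a median of 19.9% of its row and Myh4 70.1%, and the Myh8 count was 5.43 to 9.10% of the Myh4 count in every library. For Myh2 and Myh13 solved values are not given as levels, because their counts did not keep the ratio to Myh4 that even coverage gives. Myh4 reads alone would put the Myh2 row at 0.310% of the Myh4 count and the Myh13 row at 0.0775%, whereas the measured ratios ran from 0.0573 to 0.729% and from 0.00342 to 0.145% over the 40 libraries. Which messages supplied these rows is therefore not settled, and the solved parts of Myh7 and Myh6 rest on the same assumption. By that solution Myh4 supplied up to 87.7% of the Myh7 row and up to 64.7% of the Myh6 row in a library. Values of the rows Myh8, Myh6, Myh2, Myh13 and Myh7b below are those of the rows as deposited and are not levels of the full messages.

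Of the chromosome 11 genes, Myh2, Myh1, Myh4 and Myh8 also shared a stretch of promoter, which the promoters of Myh3 and Myh13 lacked. The 14-base run in capitals was picked as the longest that these 4 promoters have in common, so its presence in them was fixed by that choice. Among 32851 RefSeq promoters (the 250 bases before each start, GRCm38.p6), the run occurred in these 4 only. It is shown with 40 bases on each side, all on the plus strand, at chr11:67170862-67170955 (Myh2), chr11:67199902-67199995 (Myh1), chr11:67237614-67237707 (Myh4) and chr11:67277030-67277123 (Myh8).
Myh2: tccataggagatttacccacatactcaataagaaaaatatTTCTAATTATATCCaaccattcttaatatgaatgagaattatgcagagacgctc
Myh1: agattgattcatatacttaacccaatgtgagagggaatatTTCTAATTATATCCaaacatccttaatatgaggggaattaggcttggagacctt
Myh4: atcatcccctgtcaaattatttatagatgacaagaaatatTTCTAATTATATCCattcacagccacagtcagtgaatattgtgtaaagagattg
Myh8: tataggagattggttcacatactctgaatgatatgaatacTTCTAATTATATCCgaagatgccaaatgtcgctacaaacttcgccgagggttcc
The run began 125 bases before the start of Myh2, 160 before Myh1, 158 before Myh4 and 54 before Myh8. Its letters are a description and no binding was measured. The TATA box TATAAA was found in 4 of the 10 member promoters, against 12.4% of all promoters, among them Myh1 and Myh4. The E-box CANNTG was found in 8 of 10 against 66.2%, the MCAT element CATTCC in 4 against 12.6%, and the Maf element TGCTGA in 1, that of Myh7b, against 16.1%. The CArG box was found in 1, that of Myh4, against 1.47%, and the MEF2 consensus and the MEF3 element TCAGGTT in 0 of 10, against 0.508% and 3.49%. Both strands were searched.

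The 8 genes together took up 2.55 to 9.25% of all counts of a library, with a median of 6.24%. At 3 months its group means were 5.66% (3mCON), 6.70% (3mCON+RM), 4.28% (3mTSCmKO) and 7.75% (3mTSCmKO+RM). At 9 months they were 5.43%, 7.07%, 3.46% and 6.93% in that order. The lowest mean at each age was that of the untreated TSCmKO group and, per length, the summed level there was 13386 TPM at 3 months and 10307 TPM at 9 months, against 17942 and 16742 TPM in the untreated controls.

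Myh4, the type IIB chain, was the most abundant heavy chain in every group. In 9mCON it measured 11826, 7053, 16305, 12459 and 18004 TPM in replicates 1 to 5, and in 9mTSCmKO 6842, 9811, 4593, 6208 and 5984 TPM. Replicate 2 of the controls lay within the range of the TSCmKO libraries, so the groups overlapped, but the other 4 controls lay above all of them. The log2 change of the counts was -1.03 (SE 0.214, edgeR adjusted p = 0.000196), and Myh4 fell. After 3 days of rapamycin, 9mTSCmKO+RM libraries measured 11066, 17239, 23257, 18206 and 14305 TPM, all above every untreated 9mTSCmKO library. Myh4 rose by 1.34 on the log2 scale (SE 0.215, edgeR adjusted p = 7.97e-06).

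At 3 months Myh4 measured 17473, 14767, 9087, 12023 and 14740 TPM in 3mCON and 11873, 16300, 8926, 5450 and 9554 TPM in 3mTSCmKO. The groups overlapped widely and the log2 difference of -0.34 did not pass the test (edgeR adjusted p = 0.283). In 3mTSCmKO+RM it measured 15106, 19773, 21250, 24254 and 19051 TPM, and the rise over 3mTSCmKO of 0.86 (SE 0.213) passed (edgeR adjusted p = 0.00233), with 1 of the 5 untreated libraries inside the treated range.

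In order of group means, Myh4 stood at 19887 ± 3335 TPM (SD, n = 5) in 3mTSCmKO+RM, 17746 ± 4415 in 9mCON+RM, 16908 ± 1433 in 3mCON+RM, 16814 ± 4554 in 9mTSCmKO+RM, 13618 ± 3183 in 3mCON, 13129 ± 4269 in 9mCON, 10420.5 ± 4011 in 3mTSCmKO and 6688 ± 1929 in 9mTSCmKO. Every neighbouring pair in this order differed by less than the larger of its SDs, although edgeR called 9mTSCmKO below 3mTSCmKO, as given with the age comparison. The means of all 4 rapamycin groups stood above all 4 vehicle groups. In controls the difference between rapamycin and vehicle did not pass the test at either age, with a log2 value of 0.51 (edgeR adjusted p = 0.12) at 9 months.

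Myh1, the type IIX chain, measured 1795, 1470, 2785, 2701 and 4546 TPM in 9mCON and 2362, 4291, 2480, 3529 and 1903 TPM in 9mTSCmKO. The ranges lay over each other, and the log2 difference was 0.09 (edgeR adjusted p = 0.777). At 3 months it measured 4079, 3463, 2344, 2898 and 2891 TPM in 3mCON and 1867, 2525, 1756, 1734 and 2347 TPM in 3mTSCmKO. That log2 difference of -0.57 (SE 0.213) missed the threshold (edgeR adjusted p = 0.0526), and passed it in DESeq2. Myh1 rose with rapamycin in TSCmKO muscle at both ages, by 0.91 (SE 0.214, adjusted p = 0.00147) at 3 months and by 0.59 (SE 0.213, adjusted p = 0.0314) at 9 months (edgeR). The treated libraries of 3 months, at 3070, 4182, 3732, 5497 and 3739 TPM, all lay above the untreated ones. The call at 9 months was lost without any 1 of 6 libraries, replicates 1, 3 and 5 of 9mTSCmKO and 3, 4 and 5 of 9mTSCmKO+RM, with values of 0.47 to 0.71 over all single omissions.

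Because the Myh1 row took reads from Myh4, both genes were also compared on solved counts, with p-values not adjusted over the 10 comparisons of a gene. Solved Myh4 fell from a mean of 48231 CPM in 9mCON to 23409 CPM in 9mTSCmKO, a log2 difference of -1.04 (exact permutation test, two-sided, p = 0.01587). Solved Myh1 was 5848 CPM in 9mCON and 8218 CPM in 9mTSCmKO, a log2 difference of 0.54 that did not pass (exact permutation test, p = 0.1746). Its difference at 3 months was -0.73 (exact permutation test, p = 0.01587). With rapamycin in 9mTSCmKO mice solved Myh4 was higher by 1.36 (exact permutation test, p = 0.007937) and solved Myh1 by 0.40 (exact permutation test, p = 0.1508).

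The composition, taken as each gene's share of the summed TPM of the 8 rows, sets these genes beside each other per length. Myh4 made up 78.7 ± 3.15% (SD, n = 5) in 9mCON, with libraries from 74.7 to 82.7%, and 65.0 ± 5.24% in 9mTSCmKO, from 59.1 to 71.3%. Myh1 made up 15.6 ± 2.49% in 9mCON, from 12.6 to 18.9%, and 28.2 ± 4.99% in 9mTSCmKO, from 22.7 to 33.6%. Neither gene's groups overlapped. The difference was -13.7 percentage points for Myh4 (exact permutation test, two-sided, p = 0.007937, adjusted over the 10 comparisons of the gene 0.03968) and 12.6 points for Myh1 (exact permutation test, p = 0.007937, adjusted 0.02646). That p is the smallest that 5 against 5 libraries allow. On solved counts the Myh4 share went from 88.3 ± 3.36% to 72.4 ± 6.18% and the Myh1 share from 10.4 ± 2.73% to 25.1 ± 5.79%. Their sum includes solved Myh2, which was 0 in 4 of 5 libraries of each of these groups.

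With rapamycin the shares lay between those of 9mTSCmKO and 9mCON+RM. In 9mTSCmKO+RM, Myh4 made up 74.0 ± 2.16% and Myh1 19.5 ± 2.16%. Against 9mTSCmKO the Myh4 share was 9.03 points higher (exact permutation test, p = 0.01587, adjusted 0.03968) and the Myh1 share differed by -8.78 points (exact permutation test, p = 0.01587, adjusted 0.03968). Both calls were lost without any 1 of replicates 1 to 4 of 9mTSCmKO+RM, and that of Myh4 also without replicate 3 or 4 of 9mTSCmKO, with differences of 7.56 to 10.6 points for Myh4 and -10.2 to -7.44 for Myh1 over all omissions. Against 9mCON+RM, whose shares were 78.5 ± 1.47% and 15.4 ± 1.43%, a difference of -4.45 points for Myh4 and 4.04 for Myh1 remained, with no overlap of libraries (exact permutation tests, both p = 0.007937, adjusted 0.03968 and 0.02646).

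Between genotypes at 3 months no difference in composition passed. Myh4 made up 75.7 ± 1.96% in 3mCON and 76.7 ± 4.57% in 3mTSCmKO, and Myh1 17.6 ± 1.29% and 16.2 ± 4.13%. The differences of 1.03 and -1.36 points did not pass (exact permutation tests, p = 0.6587 and 0.5), and the spread in 3mTSCmKO was the wider one, with Myh1 from 12.6 to 22.2%. Within TSCmKO mice the Myh1 share was 12.0 points higher at 9 than at 3 months, with no overlap (exact permutation test, p = 0.007937, adjusted 0.02646), and the Myh4 share differed by -11.8 points (exact permutation test, p = 0.01587, adjusted 0.03968), a call that held in 2 of 10 omissions of a library, with -13.5 to -10.3 points. In 3-month controls rapamycin went with a Myh1 share lower by a difference of -1.97 points (exact permutation test, p = 0.02381, adjusted 0.04762), which held in 3 of 10 omissions with -2.51 to -1.64 points, and with a Myh4 share 2.42 points higher, which did not pass after adjustment (exact permutation test, p = 0.03175, adjusted 0.06349).

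Myh7, the slow chain of type I fibers, was scarce in control EDL and had the largest fold of the 8 genes in 9-month TSCmKO muscle. It measured 5.36, 4.52, 10.6, 11.8 and 21.9 TPM in 9mCON and 49.8, 87.9, 72.3, 153 and 34.9 TPM in 9mTSCmKO. Every TSCmKO library lay above every control, and Myh7 rose by 2.79 on the log2 scale (SE 0.525, edgeR adjusted p = 7.40e-05). Myh7 had a mean of 35.6 CPM in 9mCON and 247 CPM in 9mTSCmKO as deposited, and of 8.17 ± 11.9 and 245 ± 142 CPM (SD, n = 5) when solved for shared reads. The solved values ran from 0 to 27.4 CPM in 9mCON and from 102 to 473 CPM in 9mTSCmKO, again without overlap (exact permutation test, p = 0.007937). The size of the fold therefore depends on how the shared reads are divided, with a log2 difference of 6.18 on solved CPM + 0.5, where 1 control library was solved at 0. It made up 0.782 ± 0.429% of the summed TPM in 9mTSCmKO, against 0.0608 ± 0.0212% in 9mCON, a difference of 0.721 points that did not pass after adjustment (exact permutation test, p = 0.007937, adjusted 0.05291).

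Under rapamycin, Myh7 measured 9.16, 21.5, 37.8, 15.1 and 16.5 TPM in 9mCON+RM and 19.6, 42.5, 138, 50.1 and 53.2 TPM in 9mTSCmKO+RM. The groups overlapped, and the rise of 1.42 (SE 0.500, edgeR adjusted p = 0.0396) was lost without any 1 of 6 libraries, replicates 1, 2, 4 and 5 of 9mCON+RM and replicates 3 and 5 of 9mTSCmKO+RM, and the value was 0.93 without replicate 3 of 9mTSCmKO+RM. On solved counts it was 2.48 (exact permutation test, p = 0.01587). Rapamycin within 9-month TSCmKO mice gave a log2 difference of -0.41 that did not pass (edgeR adjusted p = 0.544). Without replicate 3 of 9mTSCmKO+RM it was -0.90, which did not pass either (edgeR adjusted p = 0.181). The Myh7 share was 0.782% in 9mTSCmKO and 0.246% in 9mTSCmKO+RM, a difference of -0.535 points that missed the threshold after adjustment (exact permutation test, p = 0.01587, adjusted 0.05291). The 3-month libraries ran from 9.48 to 41.0 TPM in 3mCON and from 10.4 to 61.8 TPM in 3mTSCmKO, with a log2 difference of 0.82 (edgeR adjusted p = 0.264).

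By mean, Myh7 stood at 79.5 ± 45.7 TPM in 9mTSCmKO, 60.8 ± 45.4 in 9mTSCmKO+RM, 41.3 ± 23.5 in 3mTSCmKO, 40.8 ± 28.4 in 3mTSCmKO+RM, 23.0 ± 11.7 in 3mCON, 20.02 ± 10.8 in 9mCON+RM, 19.4 ± 5.81 in 3mCON+RM and 10.8 ± 6.95 in 9mCON (SD, n = 5). All 4 TSCmKO groups stood above all 4 control groups, and only the last step of this order exceeded the larger SD of its pair. The 4 markers of muscle spindle fibers, which contain slow myosin, summed to 2.58 to 7.13 CPM in 9mTSCmKO and to 3.77 to 17.3 CPM in 9mCON, with medians of 3.82 and 4.55 CPM.

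Myh6, the fast cardiac chain and partner of Myh7, was low throughout, with group means from 9.37 ± 6.25 TPM in 9mCON to 15.7 ± 7.11 TPM in 9mTSCmKO (SD, n = 5). It measured 5.63, 3.26, 9.59, 8.81 and 19.6 TPM in 9mCON and 10.4, 23.1, 13.2, 23.4 and 8.35 TPM in 9mTSCmKO. The ranges overlapped, and Myh6 rose by 0.78 (SE 0.295, edgeR adjusted p = 0.034), a call lost without any 1 of replicates 1, 2 and 4 of 9mCON and 2 and 4 of 9mTSCmKO, with values of 0.60 to 1.15 over all omissions. Solved for shared reads, Myh6 stood at 15.1 ± 11.6 CPM in 9mCON and 25.5 ± 12.3 CPM in 9mTSCmKO, a log2 difference of 0.97 that did not pass (exact permutation test, p = 0.1825). Of Myh6 windows 15.2% went to the Myh7 row, and of Myh7 windows 7.24% to the Myh6 row. Of 6 heart muscle markers, 5 were in the tables and summed to 16.8 to 32.8 CPM in 9mCON and 24.3 to 40.7 CPM in 9mTSCmKO. Among them Nppa and Nppb, natriuretic peptide genes, were at 0 in every 9mCON library and at means of 1.44 and 0.570 CPM in 9mTSCmKO, and Kcnj3, a potassium channel gene, went from 0.756 to 9.63 CPM. The other two did not separate the groups, with Ryr2, the cardiac ryanodine receptor gene and most of the sum, at 21.3 ± 6.03 CPM in 9mCON and 17.7 ± 4.36 CPM in 9mTSCmKO, and Tnni3, cardiac troponin I, at 0.363 ± 0.282 and 0.654 ± 0.741 CPM (SD, n = 5). The part of these markers in the Myh6 result was not tested.

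Myh2, the type IIA chain, has a row that rests on a short transcript, as described above. It measured 26.9, 37.2, 97.8, 114 and 296 TPM in 9mCON and 37.0, 138, 27.9, 89.2 and 56.3 TPM in 9mTSCmKO. The groups overlapped, and the log2 difference of -0.76 did not pass (edgeR adjusted p = 0.0964). In 9mTSCmKO+RM it measured 122, 244, 375, 218 and 195 TPM, and the rise of 1.75 (SE 0.372, edgeR adjusted p = 0.000444) was the largest rapamycin change among the 8 rows. In CPM every treated library was above every untreated one, and in TPM all but 1 were above the highest. The 3-month rise was 1.06 (SE 0.364, edgeR adjusted p = 0.0309), again with no overlap, but the call was lost without any 1 of replicates 3, 4 and 5 of 3mTSCmKO and 4 and 5 of 3mTSCmKO+RM, with values of 0.93 to 1.16. The row fell by 1.30 on the log2 scale between 3 and 9 months in TSCmKO mice (SE 0.368, edgeR adjusted p = 0.00575), from 164 ± 27.3 to 69.7 ± 44.8 TPM, with no overlap in CPM.

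Myh8, the perinatal chain, was the third in level, at 514 ± 186 TPM in 9mTSCmKO to 1192 ± 205 TPM in 3mTSCmKO+RM (SD, n = 5). It measured 618, 491, 929, 706 and 1187 TPM in 9mCON and 598, 792, 362, 475 and 340 TPM in 9mTSCmKO. Myh8 fell by 0.67 on the log2 scale (SE 0.211, edgeR adjusted p = 0.0106), a call lost without replicate 5 of 9mCON, where the value was -0.50. With rapamycin the row rose by 1.14 at 9 months (SE 0.212, adjusted p = 7.03e-05) and by 0.90 at 3 months (SE 0.211, adjusted p = 0.00144, both edgeR). Under even coverage most of the row came from Myh4 windows, and the correlation of the 2 rows over the 40 libraries was r = 0.96. Solved for that, Myh8 differed by -0.34 between 9mTSCmKO and 9mCON (exact permutation test, p = 0.6111) and by 1.20 with rapamycin (exact permutation test, p = 0.04762).

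Myh7b and Myh13 were the remaining rows. Myh7b lay between 2.94 ± 1.39 TPM in 3mTSCmKO and 7.44 ± 2.93 TPM in 9mTSCmKO+RM (SD, n = 5). Its one call in the edgeR fit of all libraries was a rise of 0.79 (SE 0.295, edgeR adjusted p = 0.0333) from 3 to 9 months in TSCmKO mice, lost without any 1 of replicates 2 and 4 of 3mTSCmKO and 1, 2 and 3 of 9mTSCmKO, with values of 0.60 to 1.02. In 9mTSCmKO against 9mCON its log2 difference of 0.71 missed the threshold (edgeR adjusted p = 0.0585), but passed in DESeq2, in both limma fits and without any 1 of replicates 1 and 4 of 9mCON and 4 and 5 of 9mTSCmKO. Myh13 fell from 89.2 ± 37.1 to 22.7 ± 20.2 TPM over the same interval, by 2.02 on the log2 scale (SE 0.703, edgeR adjusted p = 0.0235), a call lost without any 1 of 3 libraries, replicate 2 of 3mTSCmKO or replicates 1 and 3 of 9mTSCmKO, with values of -2.73 to -1.80. With insert size as a term it had the opposite sign, at 0.42. In controls it went from 116 ± 35.6 to 29.0 ± 28.3 TPM with no overlap between ages in CPM, a log2 difference of -1.86 that did not pass (edgeR adjusted p = 0.16).

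Counted over the 8 rows, 9mTSCmKO against 9mCON gave 2 higher (Myh7, Myh6) and 2 lower (Myh4, Myh8), that is 4 of 8, while 37.9% of all tested genes were called in that comparison. The median log2 change of the 8 was -0.20. Fitted on those 10 libraries alone, 2 calls were left, Myh7 and Myh4, and 20.7% of all genes were called. For 3mTSCmKO against 3mCON edgeR called 0 of 8 (2 at an unadjusted p under 0.05, 1 by DESeq2, 0 by limma), with 19.8% of all genes called. For the rapamycin-treated groups, 9mTSCmKO+RM against 9mCON+RM gave 1 of 8, Myh7, with 20.6% called. For 3mTSCmKO+RM against 3mCON+RM edgeR called 0 of 8 (1 unadjusted, 0 by DESeq2 or limma), although all 8 values were positive, with 10% called.

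Rapamycin in 9-month TSCmKO mice raised 4 of 8, Myh4, Myh2, Myh8 and Myh1, and lowered 0, and 32.6% of all genes were called in either direction. At 3 months Myh4, Myh1, Myh8 and Myh2 rose, again 4 of 8, and 23.6% of all genes were called. The median log2 change of the 8 was 0.86 at 9 and 0.78 at 3 months. By the solution above, Myh4 supplied a median of 70.1% of the Myh8 row. In controls, 9mCON+RM against 9mCON gave 0 of 8 in edgeR (5 unadjusted, 0 by DESeq2 or limma), although all 8 values were positive, with a median of 0.66, and 11.8% of genes were called. Without replicate 5 of 9mCON this count became 4. For 3mCON+RM against 3mCON edgeR called 0 of 8 (0 unadjusted, 0 by DESeq2 or limma), with 0.679% called.

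**Figure D1:**
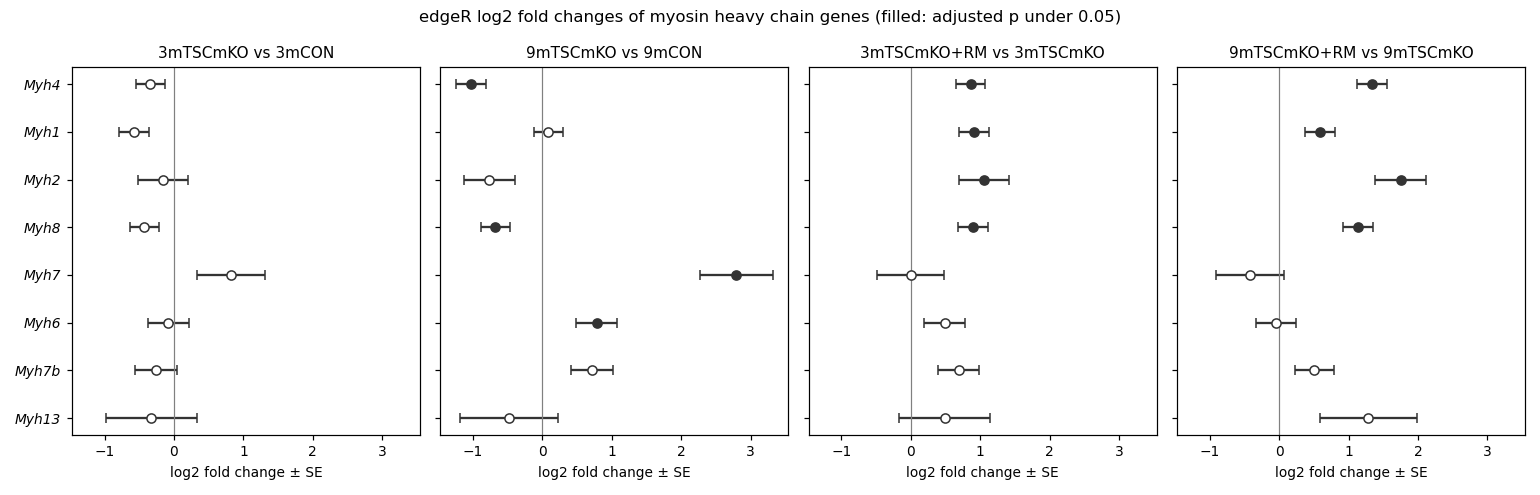
edgeR log2 fold changes with SE (bars) of the 8 rows in 4 comparisons, filled where the adjusted p was under 0.05. In 9mTSCmKO against 9mCON Myh7 stands at 2.79 and Myh4 at -1.03, and under rapamycin in TSCmKO mice Myh4, Myh1, Myh2 and Myh8 stand to the right of 0 at both ages.

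Over age, 9mTSCmKO against 3mTSCmKO gave 4 of 8 (Myh7b higher; Myh2, Myh4 and Myh13 lower), with 37.4% of all genes called. Myh4 fell by 0.70 on the log2 scale (SE 0.212, edgeR adjusted p = 0.00955), a call lost without replicate 2 of 3mTSCmKO, where the value was -0.43. In 9mCON against 3mCON edgeR called 0 of 8 (1 unadjusted, 0 by DESeq2 or limma), with all 8 values negative and 1.02% of genes called. The 138 genes behind that share became 30 to 942 when 1 library was left out and 26 with insert size as a term. Insert size moved with age, and in a fit with insert size as a term, which lacked replicate 5 of 9mTSCmKO+RM because its label gives none, 0 of 8 passed in the TSCmKO age comparison, where 12.6% of all genes were then called. The log2 values were then -0.84 for Myh4, -1.38 for Myh2, 0.68 for Myh7b and 0.42 for Myh13. Long messages as a class were lower at 9 months in controls, with a median log2 difference of -0.204 over 1139 genes longer than 5000 nt against 0.148 over 1261 genes shorter than 1000 nt, classes chosen after the values were seen. In TSCmKO mice these medians were -0.265 and 0.212 over the same ages. Between genotypes, 9mTSCmKO against 9mCON gave -0.11 and 0.0192. The part of message length in the heavy chain results was not tested.

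Whether genotype acted differently by age, or rapamycin by genotype, was tested with interaction terms. edgeR called 0 of 8 for genotype by age (5 unadjusted, 0 by DESeq2 or limma), with 4.94% of all genes called. The terms were 1.97 for Myh7 (edgeR adjusted p = 0.0996), -0.69 for Myh4 (adjusted p = 0.186) and 0.66 for Myh1 (adjusted p = 0.214). For rapamycin by genotype at 9 months it called 0 of 8 (1 unadjusted, Myh4 at 0.83 with adjusted p = 0.0983), with 4.87% called, and at 3 months 0 of 8 (2 unadjusted), with 3.45% called. DESeq2 and limma called 0 in both.

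The heavy chains work with fiber-type-specific light chains, troponins and calcium pumps, and these partners were counted in lists, to be read beside the 37.9% of all genes called in 9mTSCmKO against 9mCON. Of 12 slow sarcomere genes, 11 rose and 0 fell in that comparison, with a list median of 1.9 on the log2 scale against -0.0216 for all genes. Myl2, the slow regulatory light chain, went from 17.1 ± 2.24 to 565 ± 167 CPM, a log2 change of 5.04 (SE 0.513, edgeR adjusted p = 1.18e-09). Tnni1, slow troponin I, rose by 3.73 (adjusted p = 9.51e-06), and the exception was Mybpc1 at -0.19. Of 9 slow and oxidative genes 7 rose and 0 fell, with a median of 0.754. Atp2a2, the slow calcium pump, went from 42.4 ± 11.5 to 711 ± 304 CPM, a change of 4.07 (adjusted p = 3.60e-11), and Casq2, slow calsequestrin, rose by 1.76 (adjusted p = 9.03e-11).

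Of 11 fast sarcomere genes 0 rose and 4 fell, a share near that of all genes, namely Mybpc2, the fast myosin binding protein (-1.31), Actn3 (-0.72), and Myl1 and Myoz1, which the rule did not name, at -0.62 and -0.60 (edgeR). The list median was -0.254. Of 9 fast calcium and energy genes 6 fell, among them Casq1, fast calsequestrin, at -1.14, and 1 rose, Sln, a small inhibitor of the calcium pump, at 4.02, with a list median of -0.759. Of 11 thick filament and myosin folding genes 2 rose and 4 fell, among them Mybph (-1.88) and Ttn (-0.89). Of 30 tested fiber type regulators 6 rose and 7 fell, again near the 37.9% of all genes. Maf, a large Maf transcription factor, went from 197 ± 17.6 to 72.8 ± 15.6 CPM, a change of -1.44 (adjusted p = 7.81e-10), and Esrrg, a nuclear receptor of oxidative fibers, rose by 1.22 (adjusted p = 0.000775).

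In 3mTSCmKO against 3mCON, 19.8% of all genes were called. Slow sarcomere genes gave 1 higher, Myl2 at 2.03, and 1 lower, Myom3 at -1.50. Slow and oxidative genes gave 3 higher, Atp2a2 at 1.95, Fabp3 at 0.97 and, not named by the rule, Ldhb at 0.74. Fast sarcomere genes gave 1 higher, Mylk2 (0.64), and 1 lower, Mybpc2 (-0.62). Fast calcium and energy genes gave 4 lower, among them Ldha (-0.66) and Eno3 (-0.46), and regulators gave 4 higher and 4 lower, with the mitochondrial coactivator gene Ppargc1a at -1.13 and the MCAT-binding factor gene Tead4 at -0.999. Thick filament genes gave 2 higher, among them the ubiquitin ligase gene Trim63 at 1.55, and 2 lower, among them Mybph at -1.86. The interaction of genotype with age passed for 6 of 12 slow sarcomere genes and 5 of 9 slow and oxidative genes, all in the positive direction, beside 4.94% of all genes called for that term.

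In 9-month TSCmKO mice, with 32.6% of all genes called, rapamycin lowered 3 and raised 2 of the 12 slow sarcomere genes, with a median of -0.601, and lowered 7 of the 9 slow and oxidative genes, with a median of -0.639. Myl2 fell by 1.52 on the log2 scale and Casq2 by 1.03, whereas Tnni1 at -0.98 and Atp2a2 at -0.50 did not pass. Of the 11 fast sarcomere genes 3 rose, Mybpc2 by 1.60, Actn3 by 0.94 and, not named by the rule, Myom2 by 0.71. Of the 9 fast calcium and energy genes 1 rose and 3 fell, with a median of -0.0634. Maf rose by 0.57. Of 11 thick filament genes 4 rose and 2 fell, and of 30 regulators 7 rose and 3 fell. With rapamycin at 3 months 3 of the 9 slow and oxidative genes fell, with a median of -0.343, where 23.6% of all genes were called. There, slow sarcomere genes gave 3 higher and 1 lower, and fast sarcomere genes 2 higher and 2 lower. Fast calcium and energy genes gave 2 higher and 3 lower. Thick filament genes gave 3 higher and 3 lower, and regulators 4 higher and 7 lower.

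**Figure D2:**
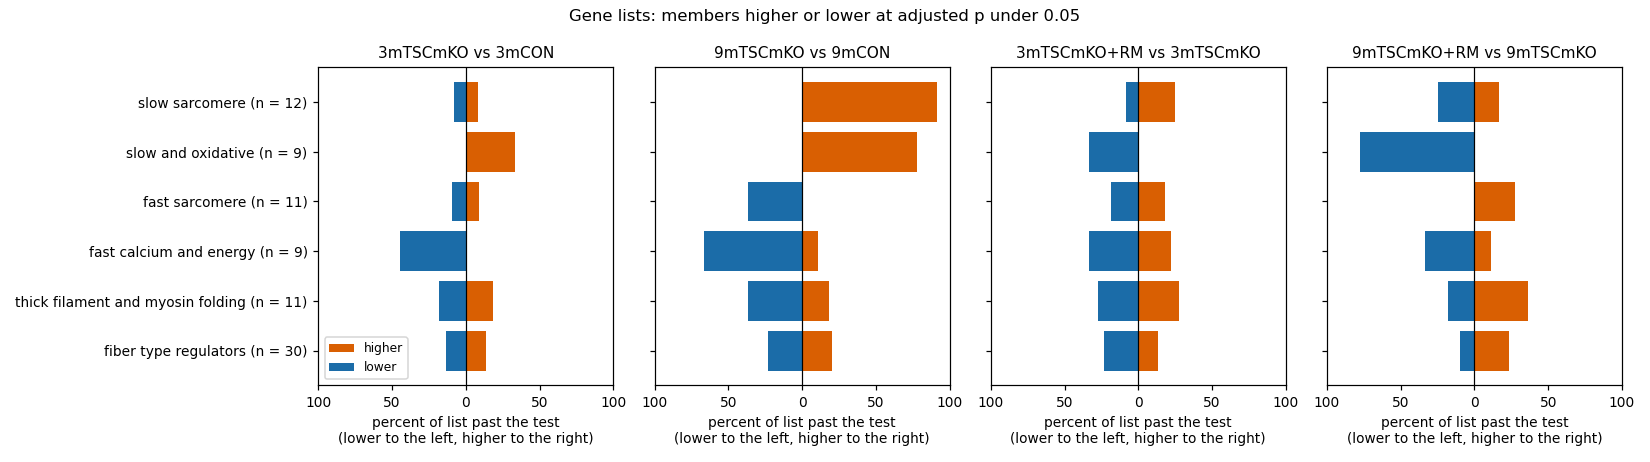
Percent of the tested genes of 6 lists that passed the edgeR threshold, lower to the left and higher to the right of 0, in 4 comparisons. In 9mTSCmKO against 9mCON the bar for slow sarcomere genes (11 of 12) and that for slow and oxidative genes (7 of 9) lie wholly to the right, and the slow and oxidative bar lies to the left under rapamycin (7 of 9).

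Of 9 tested genes of embryonic and regenerating fibers, 6 rose in 9mTSCmKO against 9mCON and 1, Myod1, fell by 0.59 on the log2 scale, beside 37.9% of all genes called in either direction. The list median was 0.996, while the row of perinatal Myh8 fell. Chrng, the fetal acetylcholine receptor subunit, rose by 4.67 and Myl4, the embryonic light chain, by 2.75. Among 4 tested non-sarcomeric or smooth muscle heavy chains 2 rose, a share near that 37.9%, namely Myh10 by 1.48 (edgeR adjusted p = 6.81e-06) and Myh14 by 0.61 (edgeR adjusted p = 0.0044).

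Markers of other cells moved with some groups. The 5 tendon markers summed to 86.1 to 505 CPM in 9mCON, 58.4 to 130 CPM in 9mTSCmKO and 33.2 to 82.0 CPM in 9mTSCmKO+RM. At 3 months they summed to 132 to 789 CPM in 3mCON and 168 to 452 CPM in 3mTSCmKO, so that every 3mTSCmKO library stood above every 9mTSCmKO library, with the age changes of Myh4, Myh2, Myh13 and Myh7b. The 3 adipocyte markers summed to 17.9 to 35.1 CPM in 9mCON and 4.04 to 14.02 CPM in 9mTSCmKO, and the 4 erythroid markers to 246 to 4981 CPM and 197 to 834 CPM. The 6 skeletal fiber markers summed to 76605 to 98132 CPM in 9mCON and 57992 to 69621 CPM in 9mTSCmKO, without overlap. Their part in the heavy chain results was not tested.

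Genes whose pattern was most like each heavy chain were found by Pearson correlation of log2 CPM over the 40 libraries among 9632 genes, as a description. These libraries fall into 8 groups and differ in depth and insert size, which such a correlation also reads. Among the genes most like Myh4 were Mybpc2 (r = 0.922), a sarcomere gene, and Gphn (r = 0.901). Myh7 was most like Tnni1 (r = 0.903), Tnnt1 (r = 0.841) and Atp2a2 (r = 0.839), which are slow-fiber genes of the lists. Among those most like Myh1 were Kpnb1 (r = 0.830) and Flii (r = 0.829), neither of them a sarcomere gene.

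Neighbours of the remaining rows follow, of which Myh2, Myh7b and Myh13 rest on short transcripts. Myh2 was most like Mtor (r = 0.953), the kinase gene, Hdlbp (r = 0.938) and Sptb (r = 0.938). Myh7b was most like Sart1 (r = 0.754), Fip1l1 (r = 0.705) and Lrrc47 (r = 0.703). Myh13 was most like Gm10364 (r = 0.851), AC121965.1 (r = 0.813) and Atp5k (r = 0.787). Myh8 was most like Gphn (r = 0.878), Snrnp200 (r = 0.869) and Ssrp1 (r = 0.868), and Myh6 like Cast (r = 0.735), Eif3c (r = 0.732) and Spg20 (r = 0.712). Among the rows themselves Myh4 and Myh7 had r = -0.29, Myh4 and Myh1 r = 0.68, and Myh6 and Myh7 r = 0.75.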

How the data were processed

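RNA from EDL muscle lysates was captured on oligo(dT) beads and sequenced as directional single-end reads of 50 nt. The authors trimmed reads with Cutadapt 1.9.1 and mapped them with kallisto 0.43.1 to Ensembl transcripts of GRCm38 at support levels 1 to 3. By their text these were protein-coding, whereas the lengths behind the Myh2 and Myh7b rows are those of transcripts annotated as non-coding or with a retained intron. They shared each read equally among the transcripts it fitted, and summed per gene. They deposited estimated counts per gene, which need not be whole, and TPM made from counts and length. Reads of these libraries were mapped with a strand-specific setting. All value columns were matched to samples, and each group holds 5 libraries.

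Here, estimated counts were rounded, filtered (1 CPM in at least 5 libraries), scaled by TMM and fitted over all 40 libraries with edgeR 4.0.16 (quasi-likelihood, R 4.3.3), 1 mean per group, in 10 pairwise and 3 interaction comparisons. P-values were adjusted by Benjamini-Hochberg over 13543 genes, with a threshold of 0.05. By the study's text the 5 libraries of a group came from 5 mice. Shares of summed TPM were compared by exact two-sided permutation tests (scipy 1.17.1), adjusted over the 10 comparisons of each gene. Reads shared among heavy chains were divided again by non-negative least squares on 50-base windows of GENCODE M21 messages, and tested on log2(CPM + 0.5). limma 3.58.1 on log2(TPM + 1) or log2(TPM + 0.1), DESeq2 1.42.0, other scalings, no filter, insert size and a replicate block were alternatives. The edgeR fit alone was also run on simulated counts, and the outcome is not given here.

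The heavy chain genes and lists were chosen with earlier results of these data known. Genes named are all heavy chains, for each the 3 most correlated others with a mean of at least 5 CPM (on log2(CPM + 1)), the 2 largest called changes per partner list in the genotype comparison at each age, and Tsc1. Some genes that this rule names are not reported here. Other lists are given by counts and medians.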

Additional observations from a re-analysis of the deposited data

Results flagged for a closer look

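In groups of 5, a library was singled out where its gap to the nearest other, as a part of the group's range, passed Dixon's limit. This held in 3 of 64 sets of libraries examined, and chance alone flags about 1 in 20. Myh2 stood at 96.2 CPM in replicate 5 of 3mCON, against 149 to 169 CPM in the other 4 (gap 0.727 of the range). Myh7 stood at 398 CPM in replicate 3 of 9mTSCmKO+RM, against 76.0 to 167 CPM (0.719), and without this library the log2 difference of Myh7 from 9mCON+RM was 0.93 and did not pass (edgeR). Myh7b stood at 3.55 CPM in replicate 3 of 9mCON+RM, against 1.29 to 1.80 CPM (0.774).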

How the results depend on the processing

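Of 104 member comparisons 17 passed, and 7 of these passed in every setting, solved counts of Myh2 aside: Myh4 in 9mTSCmKO against 9mCON and with rapamycin in TSCmKO mice at both ages, Myh7 in 9mTSCmKO against 9mCON, Myh8 and Myh2 with rapamycin in TSCmKO mice at 9 months, and Myh1 with it at 3 months. On solved counts the Myh2 rise at 9 months did not pass (exact permutation test, p = 0.1667). All 17 held with DESeq2, with the other scalings and with the replicate block, 15 and 14 with limma (pseudocounts 0.1 and 1), 13 without the filter, 12 on the compared groups alone, and 11 with insert size as a term. On solved counts, by exact p without adjustment, 7 of the 12 calls of Myh1, Myh4, Myh6, Myh7 and Myh8 held. The calls of Myh2, Myh13 and Myh7b, whose rows rest on short transcripts, are not in that count. Among these, the Myh2 rises with rapamycin did not pass on solved counts at either age. The age changes of Myh2 and Myh7b did pass, and Myh13 showed no difference. The fit with insert size also left out replicate 5 of 9mTSCmKO+RM, whose label gives no insert size, and 2 of its 6 lost calls, Myh1 with rapamycin in 9-month TSCmKO mice and Myh7 in 9mTSCmKO+RM against 9mCON+RM, were lost without that library alone. With insert size Myh13 in 9mTSCmKO against 3mTSCmKO reversed to 0.42. The cause of the other losses was not tested. Of 87 comparisons that did not pass, 18 passed in some setting.

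The number of rows called changed as follows. For 9mTSCmKO against 9mCON it was 2 on the compared groups alone, 3 without the filter, 5 with DESeq2 and with limma at a pseudocount of 0.1, where Myh7b was added, and 4 in the other settings. On the compared groups alone it was 2 for 9mTSCmKO against 3mTSCmKO, and 1 for each of 3mTSCmKO against 3mCON (Myh1), 3mTSCmKO+RM against 3mCON+RM (Myh2) and rapamycin by genotype at 3 months (Myh1). It was 1 for 3mTSCmKO against 3mCON with upper-quartile scaling, DESeq2 and the replicate block. It was 0 for 9mTSCmKO+RM against 9mCON+RM without the filter, and 0 with insert size, in the fit that also lacked replicate 5 of 9mTSCmKO+RM and without that replicate alone. It was 0 for 9mTSCmKO against 3mTSCmKO with insert size. With only the 4 adult genes in the sum, the Myh4 share differences of 9.47 points for rapamycin in 9-month TSCmKO mice and of -12.4 between ages in TSCmKO mice no longer passed.

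Leaving out 1 library at a time gave 3 to 5 rows for 9mTSCmKO against 9mCON, where Myh7b passed in 4 and Myh2 in 3 of the omissions, 0 to 2 for 3mTSCmKO against 3mCON, 0 to 1 for 9mCON against 3mCON, 0 to 4 for 9mCON+RM against 9mCON, 2 to 6 for 9mTSCmKO against 3mTSCmKO, 0 to 2 for 9mTSCmKO+RM against 9mCON+RM, and 0 to 1 for genotype by age and for rapamycin by genotype at 9 months. Share differences in percentage points, each with a change of call, ranged from -2.51 to -1.64 (Myh1) and 1.81 to 3.17 (Myh4) for 3mCON+RM against 3mCON, -10.2 to -7.44 (Myh1), 7.56 to 10.6 (Myh4) and -0.627 to -0.367 (Myh7) for 9mTSCmKO+RM against 9mTSCmKO, -13.5 to -10.3 (Myh4) for 9mTSCmKO against 3mTSCmKO, and 0.110 to 0.188 (Myh7) for 9mTSCmKO+RM against 9mCON+RM. With 4 against 5 libraries the exact test has fewer arrangements.

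Groups share only replicate numbers. Deviations of same-numbered libraries had a median r of -0.004 (-0.363 to 0.412), against -0.003 for other numbers, and 4 of 40 libraries matched their own number best. With the replicate block, 5 rows passed in 9mTSCmKO against 3mTSCmKO in place of 4. Depth limits Myh7b most, with 5 counts in the lowest library, and then Myh13 at 9 months, with 24.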

Other observations

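Myhas (ENSMUSG00000085348, chr11:67211256-67237573, minus strand, GRCm38) is an antisense gene that begins upstream of Myh4 and runs back into Myh1, and it was picked out after its values were seen. It stood at 186 ± 31.5 TPM in 9mCON and 75.5 ± 12.0 TPM in 9mTSCmKO (SD, n = 5), and fell by 1.39 on the log2 scale (SE 0.158, edgeR adjusted p = 4.51e-09). At 3 months it stood at 153 ± 21.8 TPM in 3mCON and 109 ± 13.7 TPM in 3mTSCmKO, a change of -0.45 (edgeR adjusted p = 0.0325), and the genotype by age term was -0.94 (edgeR adjusted p = 0.0088), while no heavy chain row passed that test. Rapamycin raised it in TSCmKO mice by 0.63 at 9 months (adjusted p = 0.00185) and by 0.73 at 3 months (adjusted p = 0.000462), and gave -0.18 in 9-month controls (adjusted p = 0.524, all edgeR). Reads were mapped with a strand-specific setting.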
